A study of Mus musculus with 12 samples.

Results

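HPmECC, a mouse endometrial cancer cell line, was compared with primary cultures of normal endometrial cells across all genes that passed an expression filter. The series held 12 RNA sequencing libraries of cultured C57BL/6 mouse cells in 3 groups of 4, of which the 4 HPmECC libraries and the 4 normal libraries were compared here. The third group, the cancer line mECC, served for values side by side. Of 55385 gene identifiers in the count table, 15283 passed the filter and were tested. By the design text of the series, some cancer lines carry overexpressed Myc and some do not. The labels name neither the line that carries it nor the other genetic changes of the lines or whether a line is a single clone. For the normal cultures they give no number of animals, age, passage or hormone treatment. Whether a group's libraries stem from separate cultures is not stated, and the p-values therefore rest on a spread between libraries that may be technical.

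The endometrium lines the uterus and is built of a luminal and glandular epithelium on a stroma of fibroblast-like cells. Its epithelium secretes proteins into the uterine lumen and responds to estrogen and progesterone through the receptors Esr1 and Pgr. Most endometrial cancers arise from this epithelium. In the epithelial-mesenchymal transition, transcription factors of the Snai, Zeb and Twist families repress genes of cell junctions, while genes of the mesenchymal cytoskeleton and matrix are turned on.

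Levels are given as CPM, the counts of a gene relative to its library's total after scaling between libraries with TMM factors, and errors after ± are standard deviations over 4 libraries. The HPmECC libraries held 18402202 to 26873582 counts and the normal ones 16332060 to 24202564. Mitochondrially encoded transcripts took 1.37% ± 0.07 and 1.04% ± 0.23 of them. No 2 libraries of a group agreed within sampling noise. The replicates were close, with a biological coefficient of variation of 4.27% over all 12 libraries, so small differences passed the test. A gene is called here where edgeR's quasi-likelihood test gave a Benjamini-Hochberg adjusted p under 0.05 over all genes tested.

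HPmECC and normal cells differed in most of the genes measured. Calls were made for 13200 of the 15283 genes, which is 86.4%; 6575 genes (43.0%) were higher in HPmECC and 6625 (43.3%) lower. With a difference of at least 2-fold required as well, 2828 genes (18.5%) were higher and 3517 (23.0%) lower. At 10-fold or more, 596 were higher and 1496 lower. The median log2 fold change of all tested genes was 0.0012, and the 4 libraries of each group did not overlap for 12493 genes (81.7%). Against this background, the size and the level of a difference say more about a gene or a gene list than the call does. With library totals in place of TMM factors the median of all genes moved by 0.196 on the log2 scale, and the share of calls that were higher changed from 49.8% to 58.0%.

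**Figure D1:**
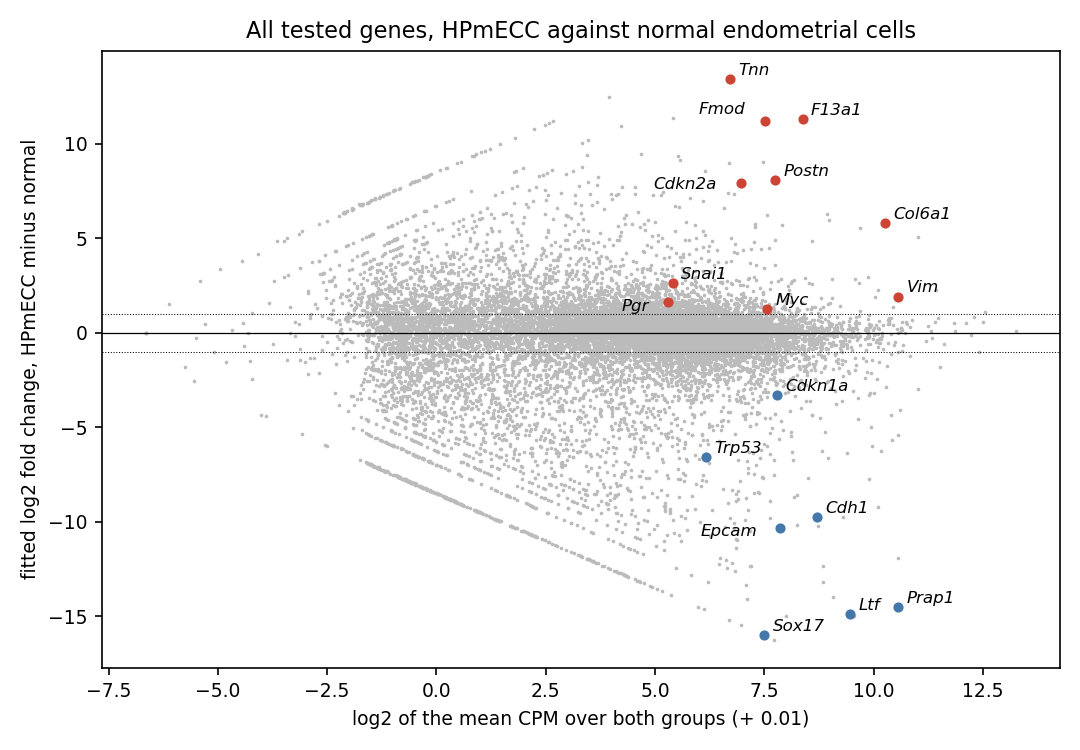
Each grey point is a tested gene, placed by the log2 of its mean CPM over both groups (x axis) and by its fitted log2 fold change, HPmECC minus normal (y axis); dotted lines mark 2-fold, red and blue points named genes that were higher and lower. Among the named points Tnn lies highest, at 13.43, and Sox17 lowest, at -16.01; fitted values of genes with few or no counts in a group depend on the prior count and are no bounds.

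The label of the line as endometrial cancer was set against marker genes. All 38 epithelial genes of the marker list were called lower in HPmECC, and each difference was at least 2-fold. Their median log2 fold change was -8.65. With the 1 member that had 0 counts in HPmECC set to its lower bound, the median was -8.20. The summed level of the list was 340.3 to 361 CPM in the 4 HPmECC libraries and 13289 to 13783 CPM in the normal ones. Of the 30 mesenchymal and fibroblast genes 21 were higher, 18 of them at least 2-fold, and 9 lower, with a median of 1.30 and a summed level of 28802 to 31961 against 9177 to 10936 CPM. By these lists the line carried mesenchymal transcripts and few of those that define epithelium, so the markers go against an epithelial reading of its label.

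The normal cultures held transcripts of several cell types. All 16 tested leukocyte genes were called lower in HPmECC, with a median of -4.73 and a summed level of 31.5 to 35.7 CPM against 377 to 470.0 CPM in normal cells. The pan-leukocyte gene Ptprc (CD45) had 0 counts in HPmECC and 1.16 ± 0.411 CPM in normal cells, and the myeloid lysozyme gene Lyz2 had 0.110 ± 0.0573 and 96.7 ± 6.61 CPM. Of 13 tested smooth muscle genes 12 were lower and 1 higher (median -3.16; sum 1351 to 1449 against 4290.1 to 4895 CPM), and of 7 mesothelial genes 6 were lower (sum 47.8 to 53.3 against 479 to 532 CPM). The seventh mesothelial gene, Bnc1, was 1.12-fold higher by a call that was lost without HPmECC replicate 3 or 4 or without normal replicate 2 or 4. Among 8 tested endothelial genes 5 were lower and 3 higher (sum 30.9 to 35.2 against 135 to 153 CPM). The endothelial cadherin gene Cdh5 stood at 39.9 ± 2.03 CPM in normal cells without a single count in HPmECC, at least 1294-fold lower. Erg, a transcription factor of endothelium, was higher in HPmECC (3.53 ± 0.327 against 0.0874 ± 0.0598 CPM). The other 5 members of the endothelial list did not pass the filter and were near 0 in normal cells too: Pecam1 (CD31), the highest of them, had 0.611 CPM there and 0.386 CPM in HPmECC, and Cldn5 had no count in either group. None of 6 red blood cell genes passed the filter. In bulk samples, fewer cells of a type and less RNA per cell cannot be told apart. The part of these other cell types in the differences described next was not tested.

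Junction and surface genes of epithelium were near absent from HPmECC. Cdh1 (ENSMUSG00000000303, chr8:106603351-106670246 of GRCm38), which encodes the adherens junction protein E-cadherin, stood at 0.725, 1.25, 0.735 and 1.03 CPM in the HPmECC libraries and at 819, 871, 822 and 842 CPM in the normal ones. The groups were far apart, with a 867-fold lower level in HPmECC (log2 fold change -9.76 ± 0.0636 SE, adjusted p = 1.03e-25 with edgeR). Epcam (ENSMUSG00000045394, chr17:87635979-87651129), an epithelial surface glycoprotein, had 0.384, 0.429, 0.105 and 0.442 CPM against 463, 489.6, 440.3 and 452 CPM and was 1268-fold lower. Ap1m2, an epithelial sorting adaptor subunit, had 1 count in all 4 HPmECC libraries and 8326 in the normal ones, a ratio of 10993 (95% counting interval 1972 to 434230.0).

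The tight junction claudins Cldn3, Cldn4 and Cldn7 fell from 237, 605 and 394 CPM to 2.22, 0.527 and 0.433 CPM. Regulators of the epithelial state were low too. The splicing factor gene Esrp1 stood at 0.0395 ± 0.0350 against 96.5 ± 3.52 CPM, Grhl2, a transcription factor of epithelial junction genes, at 0.155 ± 0.0336 against 66.1 ± 4.75 CPM, and Ovol1, an antagonist of Zeb factors, at 0.0603 ± 0.0341 against 31.1 ± 1.92 CPM. In HPmECC 23 of the 38 genes had a mean under 1 CPM and 13 a mean under 0.1 CPM; in normal cells none was under 1 CPM.

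The simple epithelial keratins were what remained. Krt8 had 124 ± 9.20 CPM in HPmECC against 2563 ± 59.9 CPM in normal cells, Krt18 at 61.0 ± 6.85 and 1918 ± 49.6, Krt7 at 30.8 ± 1.06 and 1968 ± 21.8, and Krt19 at 96.4 ± 10.5 and 328 ± 5.81. Krt19 had the smallest difference of the list, 3.40-fold. These 4 keratins made up 88.9% to 89.6% of the summed epithelial level in the HPmECC libraries and 49.4% to 50.9% in the normal ones. In mECC the same list summed to 1943 to 1989 CPM, and each of its 38 genes was called lower in HPmECC than in mECC (68.3% of all tested genes were called in that comparison, in either direction). Cdh16, a cadherin of kidney epithelium, had 5.17 ± 0.526 CPM in normal cells, 33.6 ± 3.02 CPM in mECC and 0 counts in HPmECC.

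Factors that repress epithelial genes were higher in HPmECC. Of 10 tested transcription factors of the epithelial-mesenchymal transition 9 were called higher, 8 of them at least 2-fold, and 1 lower. The median of their log2 fold changes was 2.60. Snai1 (Snail), which represses Cdh1, had 71.6, 71.2, 73.2 and 75.6 CPM in HPmECC against 12.3, 10.8, 12.3 and 12.2 CPM in normal cells. It was 6.13-fold higher (log2 fold change 2.62 ± 0.0490 SE, adjusted p = 1.39e-19 with edgeR), with no overlap between the groups. Snai2 (Slug) rose 10.6-fold to 48.3 ± 4.74 CPM, Zeb1 5.99-fold to 96.3 ± 2.07 CPM, Zeb2 4.66-fold to 73.9 ± 5.09 CPM and Twist1 5.56-fold to 41.3 ± 2.98 CPM. The homeobox factor Prrx1 reached 164 ± 2.02 against 19.1 ± 1.69 CPM, and the forkhead factor Foxc2 12.9 ± 0.795 against 0.900 ± 0.0801 CPM. Snai3 was the member that was lower, at 0.0896 ± 0.0892 against 1.49 ± 0.287 CPM. The mECC means of Snai2, Zeb1, Zeb2, Twist1 and Prrx1 were 103, 66.3, 82.6, 35.3 and 195 CPM, while Snai1 stood at 16.2 CPM there.

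**Figure D2:**
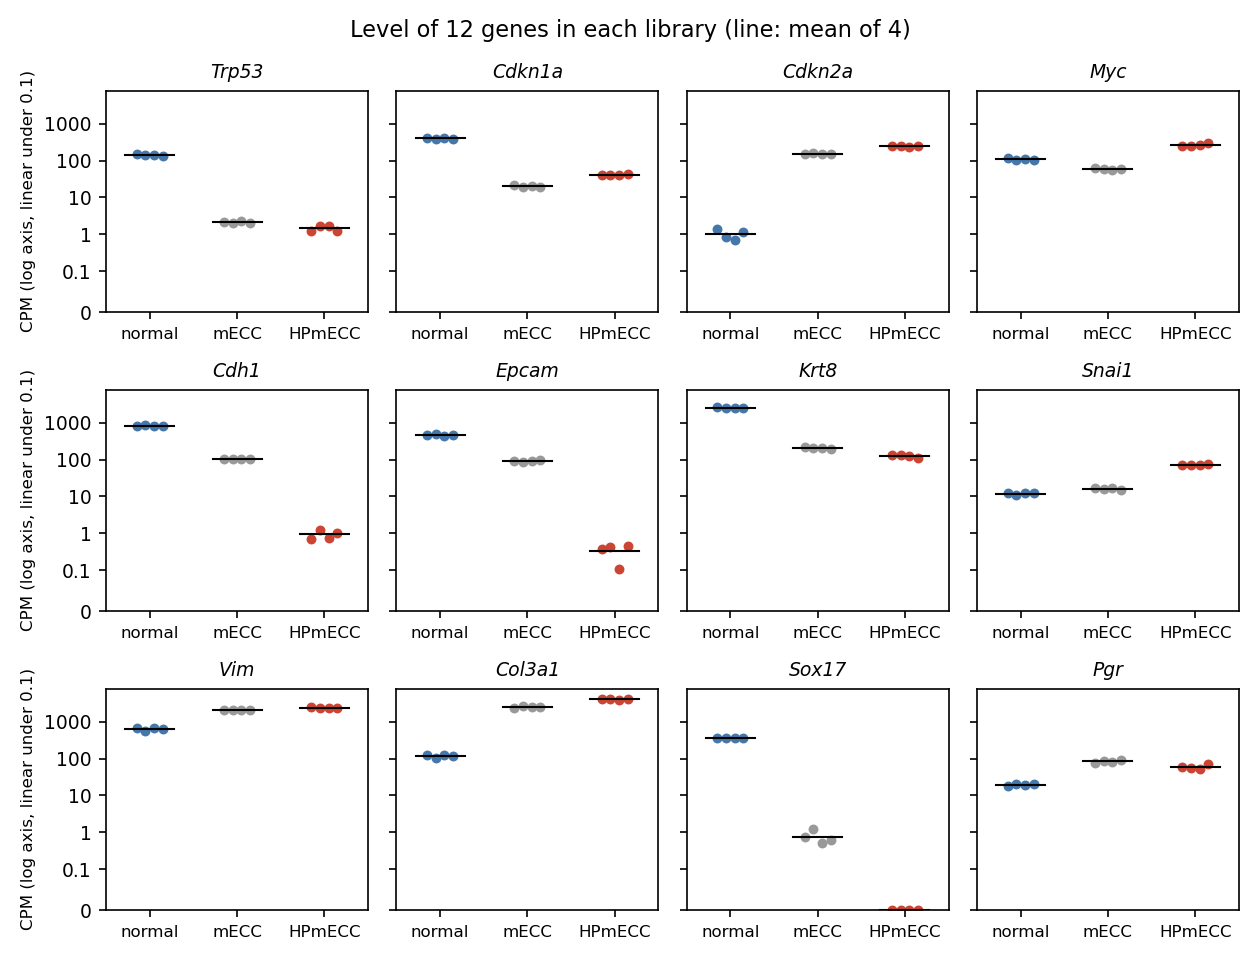
CPM of 12 genes (panels) in each library of normal cells, mECC and HPmECC (points), on a log axis that is linear under 0.1 CPM; black lines are means of 4 libraries. HPmECC and normal libraries do not overlap in any panel; Cdh1 and Epcam fall from normal cells over mECC to HPmECC, and Snai1 is above 50 CPM in HPmECC alone.

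Snai and Zeb factors bind the E-box CAGGTG, whose reverse complement is CACCTG, so the promoters of the epithelial genes were searched for it. RefSeq windows (GRCm38.p6) of 300 bases, from 250 before to 50 after a start site, matched 22 of the 38 epithelial genes. Cdh1 was among the genes without a window. At least 1 match on either strand was present in 18 of the 22 (81.8%), and 10 had 2 or more. The motif was present for 6098 of all 27025 genes with such windows (22.6%), for 2407 of 11157 tested genes (21.6%) and for 2 of 17 mesenchymal genes (11.8%). Overlapping matches would each be counted, and a gene with several windows counted once if any window matched. A match is a run of letters and not a measured binding site. The shares depend on which genes a list holds and not on their levels in HPmECC. Whether Snai or Zeb factors lower these genes in HPmECC was not tested. The 250 bases before the start site of 4 of these promoters are shown because the genes are among the 8 with the largest falls on the list and hold 2 to 4 matches there; letters run 5′ to 3′ on the gene's strand, and capitals mark the matches.
Epcam, chr17:87635729-87635978, plus strand: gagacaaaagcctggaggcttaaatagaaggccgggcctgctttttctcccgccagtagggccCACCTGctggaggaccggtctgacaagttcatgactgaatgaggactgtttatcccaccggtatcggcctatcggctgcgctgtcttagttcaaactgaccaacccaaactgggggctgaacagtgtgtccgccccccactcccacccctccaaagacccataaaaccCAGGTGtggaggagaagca
Ap1m2, chr9:21312334-21312583, minus strand: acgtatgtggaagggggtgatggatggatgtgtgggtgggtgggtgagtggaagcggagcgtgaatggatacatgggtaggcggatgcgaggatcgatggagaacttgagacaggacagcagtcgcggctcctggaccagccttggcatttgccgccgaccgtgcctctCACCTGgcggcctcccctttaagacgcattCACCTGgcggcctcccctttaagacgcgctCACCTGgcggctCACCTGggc
Crb3, chr17:57061951-57062200, plus strand: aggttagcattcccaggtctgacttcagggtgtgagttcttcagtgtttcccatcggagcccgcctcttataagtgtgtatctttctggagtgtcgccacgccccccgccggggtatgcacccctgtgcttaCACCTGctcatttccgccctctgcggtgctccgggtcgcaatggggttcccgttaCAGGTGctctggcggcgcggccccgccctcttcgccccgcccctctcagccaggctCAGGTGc
Lsr, chr7:30973470-30973719, minus strand: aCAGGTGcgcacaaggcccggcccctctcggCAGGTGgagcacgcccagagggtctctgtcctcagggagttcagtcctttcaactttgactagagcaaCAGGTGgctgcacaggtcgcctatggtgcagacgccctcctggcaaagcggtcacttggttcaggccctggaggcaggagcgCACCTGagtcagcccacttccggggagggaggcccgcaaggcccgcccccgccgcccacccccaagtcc
Matches in Epcam began at bases -187 and -19 from the start site, in Ap1m2 at -81, -51, -21 and -9, in Crb3 at -118, -63 and -7 with 1 more at base 26 after the start, and in Lsr at -249, -219, -151 and -69. Crb3, a polarity gene, had 0.0380 ± 0.0302 CPM in HPmECC against 77.2 ± 2.14 CPM in normal cells. Lsr, a receptor of junctions where 3 cells meet, had 0.161 ± 0.119 and 225 ± 6.16 CPM.

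Secreted products and regulators of uterine epithelium were mostly lower in HPmECC. Of the 29 genes listed for uterine epithelium and hormone response 25 were called lower, 19 at least 2-fold, and 3 higher, with a median of -4.16. Among all tested genes 43.3% were called lower, 23.0% at least 2-fold, and 43.0% higher. Prap1, a secreted protein of uterine epithelium, had the highest TPM (a level that allows for transcript length) in normal cells once mitochondrially encoded genes were left out. It reached 10156 ± 626 TPM there, and had 0.435 ± 0.443 TPM in HPmECC. Its CPM values were 3146, 3059.6, 2734 and 3147 in the normal libraries and 0.171, 0.250, 0 and 0.0368 in the HPmECC libraries. Ltf, the estrogen-induced iron-binding protein lactoferrin, stood at 1416 ± 128 CPM in normal cells and had 4 counts in the 4 HPmECC libraries, all of them in replicate 2. Lcn2 (lipocalin 2) stood at 1072 ± 117 against 0.0643 ± 0.0318 CPM, and the complement gene C3 at 2706 ± 323 against 53.8 ± 7.14 CPM. The mucin gene Muc4 had 20179 against 2 counts, a ratio of 13321 (95% counting interval 3687 to 110000.0).

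Transcription factors that mark Müllerian epithelium were low as well. Sox17, which is needed for uterine glands, stood at 370.1, 363, 359 and 352 CPM in normal cells and had 0 counts in all 4 HPmECC libraries, at least 11727-fold lower. Pax8 had 1.75 ± 0.258 against 345 ± 11.0 CPM, Pax2 1.48 ± 0.154 against 30.8 ± 1.82 CPM, and Msx1 3 against 1592 counts. Emx2, in contrast, was 1.37-fold higher, at 53.8 ± 1.91 CPM. The signals Ihh (Indian hedgehog) and Wnt7a, which epithelium sends to stroma, stood at 47.0 ± 3.23 and 291 ± 2.76 CPM in normal cells and had 2 and 5 counts in HPmECC.

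The steroid receptors went apart. Pgr, the progesterone receptor (ENSMUSG00000031870, chr9:8899833-8968611), had a mean of 59.1 ± 7.55 CPM in HPmECC and of 19.3 ± 1.07 CPM in normal cells and was 3.06-fold higher (log2 fold change 1.61 ± 0.0861 SE, adjusted p = 1.59e-12 with edgeR). Esr1, the estrogen receptor, had 38.1, 39.0, 36.6 and 43.6 CPM against 71.6, 84.5, 75.0 and 73.7 CPM and was 1.93-fold lower (log2 fold change -0.95 ± 0.0572 SE, adjusted p = 1.02e-11 with edgeR). The groups overlapped for neither gene. In mECC the means were 83.8 CPM for Pgr and 55.9 CPM for Esr1. Greb1, a target of the estrogen receptor, was 1.58-fold higher in HPmECC. Foxa2, a factor of uterine glands, had 1.29 ± 0.114 and 1.52 ± 0.240 CPM, a difference that was not called.

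Genes of uterine stroma were lower more often than higher. Of 18 tested stromal genes 13 were lower, 11 of these at least 2-fold, and 4 higher, 3 of these at least 2-fold, with a median of -1.30. For all tested genes the shares were 43.3% lower and 43.0% higher, with 23.0% and 18.5% by at least 2-fold. Hand2, a progesterone-induced factor of stroma, stood at 0.177 ± 0.0792 against 12.1 ± 1.29 CPM, and the growth factors Fgf9 and Fgf18 at 0 counts and 0.137 ± 0.118 CPM against 19.8 ± 0.874 and 41.4 ± 1.01 CPM. Hoxa10 and Hoxa11, which pattern the uterus, were 3.96-fold and 7.53-fold lower. Ptch1 and Gli1, target genes of hedgehog signaling, were 6.63-fold and 5.61-fold higher. The immediate early factor Egr1 was 2.19-fold higher.

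The 10 largest rises among well-expressed genes included 4 of matrix proteins. Tnn, which encodes the matrix protein tenascin N, had 209.6, 210.2, 197 and 221 CPM in HPmECC and 1 count in the 4 normal libraries, a ratio of 15580.0 (95% counting interval 2796 to 615410.0). Fmod, the collagen-binding proteoglycan fibromodulin, stood at 366, 386, 363 and 358 CPM against 0.149 ± 0.115 CPM (2387-fold), and F13a1, a coagulation transglutaminase that crosslinks fibrin, at 665 ± 61.1 against 0.242 ± 0.198 CPM (2535-fold). Adamtsl2 and Adamtsl3, genes of the ADAMTS-like matrix family, stood at means of 11.9 and 37.1 CPM, with 0 counts and 1 count in normal cells. Foxd1, a forkhead factor of kidney stroma, reached 85.2 ± 2.40 CPM with 2 counts in normal cells, and Rspo2, an agonist of Wnt signaling, 20.1 ± 1.20 CPM with 1 count. Sox2, a stem cell transcription factor, had 28.5, 29.0, 32.3 and 33.1 CPM in HPmECC and 0 counts in normal cells, at least 756-fold higher. Aldh3a1, an aldehyde dehydrogenase, and Slc44a5, of a choline transporter family, had 12.8 ± 0.851 and 11.2 ± 0.867 CPM and 0 counts in normal cells. In mECC the means of Tnn, Fmod and F13a1 were 13.1, 75.1 and 29.5 CPM, all below HPmECC. Foxd1, Adamtsl3, Sox2, Adamtsl2 and Slc44a5 were also below HPmECC there, at 70.1, 21.4, 13.4, 3.08 and 3.02 CPM. Rspo2 and Aldh3a1 were above it, at 35.8 and 24.8 CPM.

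The 10 deepest falls included Acod1, whose enzyme makes itaconate, at 438, 429, 391 and 439 CPM in the normal libraries and without a count in HPmECC, at least 13809-fold lower. Which cells of the normal cultures held Acod1 transcripts was not tested. Others at 0 counts in HPmECC were Crct1 (249 ± 19.1 CPM in normal cells), the serine protease gene Tmprss4 (206 ± 9.53), Bex1 (139 ± 4.71) and the chloride channel gene Cftr (126 ± 6.56). Sprr2f, a small proline-rich protein, stood at 1505 ± 74.1 CPM in normal cells and had 4 counts in HPmECC. Sftpd, surfactant protein D, had 37556 counts in normal cells and 1 in HPmECC.

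Absence was one-sided. With a mean of at least 5 CPM in the other group required, 96 genes had 0 counts in all 4 HPmECC libraries and 7 had 0 counts in all 4 normal libraries. Counts of 0 allow a level of up to 0.0307 CPM over the 4 HPmECC libraries and 0.0406 CPM over the normal ones, by counting error alone. Of the 96 genes 89 were protein coding, 34 also had 0 counts in mECC and 2 had 5 CPM or more there (Cdh16 and Klhdc7a, named after their values were seen). The genes silent in normal cells included Sox2, Aldh3a1, Adamtsl2, Slc44a5, Agt and Pax3. Pax3, a factor of neural crest and muscle precursors, stood at 5.47 ± 0.636 CPM in HPmECC, and the angiotensinogen gene Agt at 6.96 ± 1.08 CPM. In mECC 5 of the 7 reached 5 CPM.

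Mesenchymal genes were uneven. Vim, the intermediate filament vimentin (ENSMUSG00000026728, chr2:13573927-13582826), had 2453, 2374, 2355 and 2364 CPM in HPmECC and 667, 554, 685 and 624 CPM in normal cells and was 3.77-fold higher (log2 fold change 1.92 ± 0.0466 SE, adjusted p = 7.53e-18 with edgeR). The fibrillar collagen gene Col3a1 rose from 119 ± 11.1 to 4042 ± 172 CPM, and the collagen VI genes Col6a1, Col6a2 and Col6a3 from 43.3, 35.4 and 186 to 2411, 1616 and 1335 CPM. Postn, the matrix protein periostin, was 269-fold higher at 431 ± 9.37 CPM, and Pdgfrb, a receptor of mesenchymal cells, 22.3-fold higher at 374 ± 15.7 CPM. Fap, a protease of activated fibroblasts, stood at 18.6 ± 2.03 against 0.345 ± 0.145 CPM. Fn1 (fibronectin), at 8092 ± 915 CPM, was 2.10-fold higher.

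Other fibroblast genes were lower. Thy1, a surface glycoprotein, stood at 0.194 ± 0.102 against 15.6 ± 1.90 CPM, Dcn (decorin) at 1.82 ± 0.332 against 18.7 ± 3.69 CPM and Col5a2 at 14.4 ± 1.09 against 542 ± 58.3 CPM. Col1a1 was 1.49-fold higher, whereas Col1a2, the partner chain of type I collagen, was 2.11-fold lower. Cdh2 (N-cadherin), often higher after the transition, was 4.17-fold lower at 17.1 ± 0.917 CPM. Contractile genes of smooth muscle and myofibroblasts were lower in 12 of 13 cases. Tagln stood at 1.45 ± 0.299 against 1267 ± 111 CPM, Acta2 at 213 ± 27.2 against 1048 ± 93.6 CPM and Cnn1 at 1.16 ± 0.130 against 40.6 ± 4.37 CPM. Mylk, a myosin light chain kinase, was 3.86-fold higher.

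Proteoglycan and basement membrane genes went both ways. Of 36 tested 13 were higher, 12 of them at least 2-fold, and 20 lower, 14 of them at least 2-fold (median -0.63). For all tested genes the shares were 43.0% higher and 43.3% lower, with 18.5% and 23.0% by at least 2-fold. Lama3 and Lamb3, laminin chains of epithelial basement membrane, fell from 273 and 344 to 2.52 and 39.2 CPM. Aspn (asporin) and Prelp, leucine-rich proteoglycans like Fmod, stood at 15.5 ± 1.71 and 61.9 ± 4.75 CPM against 0.0414 ± 0.0291 and 0.387 ± 0.120 CPM. Acan, the cartilage proteoglycan aggrecan, had 35.1 ± 6.51 CPM in HPmECC, 1.14 ± 0.251 CPM in normal cells and 0.735 ± 0.253 CPM in mECC. Among 27 tested matrix proteases and inhibitors 11 were higher and 14 lower (median -0.32). Mmp7, a protease of epithelium, was not counted in HPmECC and stood at 66.5 ± 18.7 CPM in normal cells, and the urokinase gene Plau and its receptor Plaur fell to 38.2 and 36.2 CPM from 611 and 321 CPM. The inhibitor Timp2 was 6.21-fold higher at 632 ± 7.24 CPM, and Mmp2 2.35-fold higher.

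**Figure D3:**
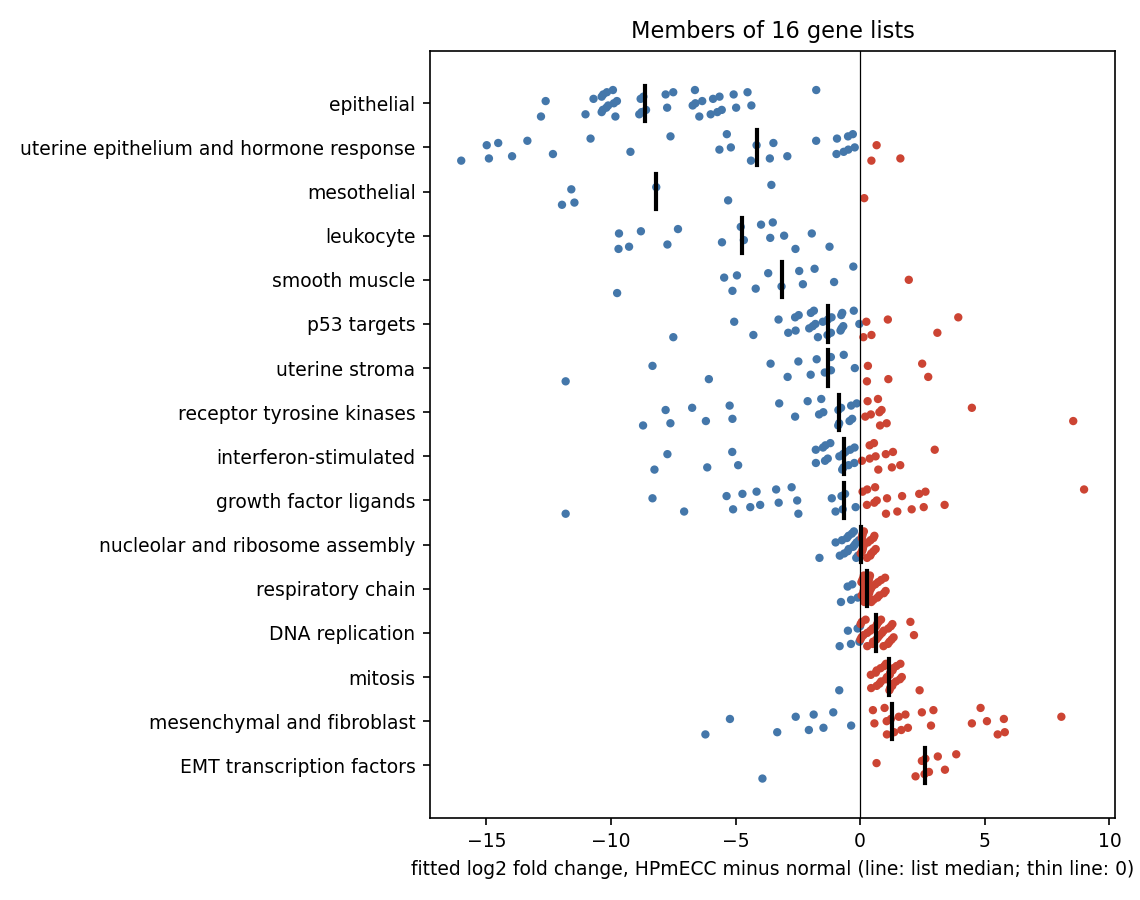
Fitted log2 fold change, HPmECC minus normal, of each tested member (points) of 16 gene lists; red points are above 0, blue points below, and thick black lines are list medians. The epithelial list lies wholly below 0 around -8.65, while the mitosis and transition factor lists have medians of 1.17 and 2.60; the median of all tested genes is 0.0012.

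Transcripts of the tumor suppressor Trp53 were all but missing from HPmECC. Trp53 (ENSMUSG00000059552, chr11:69580359-69591873) had 1.24, 1.72, 1.68 and 1.25 CPM in HPmECC against 149, 142, 139.7 and 135 CPM in normal cells, 96.1-fold lower (log2 fold change -6.59 ± 0.0669 SE, adjusted p = 1.75e-23 with edgeR). Its level in mECC was 2.14 ± 0.0950 CPM, and the difference between the lines (edgeR adjusted p = 0.00150) was small beside that from normal cells. Of 32 genes that p53 activates 25 were called lower, 19 of them at least 2-fold, and 6 higher, with a median of -1.30; 43.3% of all tested genes were called lower and 23.0% at least 2-fold lower. Cdkn1a, the cell cycle inhibitor p21, had 40.4, 41.3, 41.6 and 42.5 CPM against 413, 395, 404 and 394 CPM and was 9.69-fold lower.

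The death receptor gene Eda2r fell 181-fold from 38.0 ± 1.27 CPM, the apoptosis genes Pmaip1 (Noxa) and Perp 33.2-fold and 19.5-fold, and Ccng1 7.40-fold. Mdm2, the p53 antagonist and target, was 3.24-fold lower. A few targets went the other way. Sesn1, a stress-response gene, rose 15.3-fold to 69.4 ± 2.80 CPM, the death receptor gene Fas 8.55-fold to 16.4 ± 0.917 CPM and Ak1, an adenylate kinase gene, 2.16-fold. Bbc3 (Puma) was 1.37-fold higher.

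Of 13 p53 regulators and cell cycle inhibitors 8 were higher and 4 lower, beside 43.0% and 43.3% of all tested genes. Cdkn2a, the locus of p16INK4a and p19ARF (ENSMUSG00000044303, chr4:89274471-89294653), had 249 ± 5.31 CPM in HPmECC against 1.42, 0.831, 0.716 and 1.15 CPM in the normal libraries and was 244-fold higher (log2 fold change 7.93 ± 0.0679 SE, adjusted p = 2.07e-24 with edgeR). Counts per gene do not tell its p16 from its ARF transcripts. Cdkn2b (p15) rose from 31.9 ± 1.53 to 134 ± 3.96 CPM, Cdkn1b (p27) from 19.3 ± 0.524 to 102 ± 2.99 CPM, Cdkn2d (p19INK4d) 5.47-fold and Cdkn2c (p18) 2.47-fold. Of the retinoblastoma family, Rb1 stood at 23.0 ± 1.42 against 27.9 ± 2.49 CPM, while Rbl1 and Rbl2 were 1.90-fold and 1.99-fold higher.

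Genes of mitosis were higher nearly throughout. Of 27 mitotic genes 26 were called higher, 17 at least 2-fold, and 1 lower, with a median of 1.17. Among all tested genes 43.0% were called higher, 18.5% at least 2-fold, and 43.3% lower. Bub1b, a spindle checkpoint kinase gene, rose 5.22-fold to 166 ± 3.25 CPM, Cenpa, the centromeric histone, 3.18-fold, Aurkb 3.02-fold and Top2a 2.48-fold to 436 ± 4.36 CPM. The proliferation marker Mki67 stood at 221 ± 16.3 against 139.8 ± 7.80 CPM. Anln (anillin), which acts in cytokinesis and at the cell cortex, was the member that was lower, 1.79-fold. The DNA replication list moved less, with 27 of 37 genes higher, 9 at least 2-fold, and 4 lower (median 0.64). Pold2, a polymerase delta subunit, rose 4.46-fold and Rfc3, of the clamp loader, 4.04-fold, while the helicase genes Mcm4 and Mcm5 stood at 109 and 90.6 CPM against 108 and 87.3 and were not called. Gins2 was 1.41-fold lower here but higher on the TPM scale.

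Among 18 cyclins, cyclin-dependent kinases and E2F factors 13 were higher and 4 lower (median 0.34), beside 43.0% and 43.3% of all tested genes. The phosphatase gene Cdc25b rose 5.59-fold and the mitotic cyclin genes Ccna2 and Ccnb2 2.63-fold and 2.46-fold. Ccnd1 (cyclin D1) was 6.03-fold lower at 139 ± 5.51 against 837 ± 15.6 CPM, with Ccnd2 1.77-fold higher. In mECC Ccnd1 stood at 111 CPM.

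Myc (ENSMUSG00000022346, chr15:61985391-61990374) was above normal in each HPmECC library, whereas other genes of its network moved both ways. Myc had 257, 248, 258 and 302 CPM in HPmECC, 117, 107, 113 and 107 CPM in normal cells and 62.1, 59.9, 57.2 and 58.6 CPM in mECC. The rise over normal cells was 2.40-fold (log2 fold change 1.26, SE 0.0510, adjusted p = 1.92e-14 with edgeR). Counts per gene cannot tell a transgene from the endogenous locus. Mycn had 2196 counts in normal cells and 2 in HPmECC, a ratio of 1449.7 (95% counting interval 401 to 11978), and Mycl was 3.78-fold lower. Max, the partner of Myc, fell from 94.8 ± 5.16 to 42.0 ± 2.37 CPM. The antagonists Mxd3 and Mxd4 rose 6.11-fold and 2.93-fold, and Mxd1 fell 5.39-fold. In all 5 of 12 tested genes of the network were higher and 7 lower, beside 43.0% and 43.3% of all tested genes.

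Ribosome assembly genes, which Myc is known to activate, differed little between HPmECC and normal cells. Of 35 nucleolar genes 14 were called higher and 16 lower, 1 of them by 2-fold or more, with a median of 0.017. Ncl (nucleolin) stood at 787 against 871 CPM and Npm1 at 916 against 948 CPM. These differences, of -0.15 and -0.050 on the log2 scale, are smaller than the shift of 0.196 that library totals bring. Utp20 was 3.10-fold lower, and Polr1c, of RNA polymerase I and III, 1.54-fold higher. In mECC Ncl and Npm1 stood at 512 and 718 CPM, and the part of Myc in these levels was not tested. With library totals the nucleolar median was 0.21 in place of 0.017, and 19 genes were higher and 11 lower. Of 36 cytosolic ribosomal protein genes 20 were higher and 12 lower, none by 2-fold (median 0.16); with library totals 26 were higher and 5 lower.

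Genes of glycolysis and the hypoxia response moved both ways. Among 32 of them 14 were higher and 11 lower (median 0.069), with 6 higher and 8 lower by at least 2-fold. Over all tested genes, 86.4% were called and 41.5% were called with a difference of at least 2-fold. Slc16a3, the lactate exporter MCT4, fell from 244 ± 12.3 to 1.04 ± 0.167 CPM, Slc2a1, the glucose transporter GLUT1, from 994 ± 46.0 to 118 ± 15.1 CPM, and Adm (adrenomedullin) from 99.9 ± 2.93 to 1.47 ± 0.337 CPM. Hk2 (hexokinase 2) was 2.56-fold lower while Hk1 was 2.44-fold higher, and the phosphofructokinase gene Pfkm rose 9.64-fold to 138 ± 3.68 CPM. Aldoc rose from 4.97 ± 0.460 to 54.1 ± 9.49 CPM and Pdk1 3.61-fold. Ldha, at 1676 ± 216 against 1684 ± 37.6 CPM, and Aldoa, at 1523 ± 114 against 1514 ± 26.3 CPM, were not called.

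Of 37 nuclear genes of the respiratory chain 31 were higher and 5 lower, mostly by little (median 0.29; 1 gene at least 2-fold higher, Ndufv2 at 2.03-fold). For all tested genes the shares were 43.0% higher and 43.3% lower, with 18.5% at least 2-fold higher. The mitochondrially encoded genes had a median of -0.21, with 1 of 13 higher and 6 lower. With library totals 4 were higher and 3 lower. The summed level of these genes was 11982 to 13494 CPM in HPmECC and 8885 to 13905 CPM in the normal libraries. The groups thus overlapped, and the direction of the list is not settled. Among 24 genes of cholesterol synthesis 15 were higher and 9 lower (median 0.44). Dhcr7, a sterol reductase gene of this pathway, was 4.64-fold higher at 80.4 ± 1.05 CPM.

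Receptors and ligands of growth factors were lower more often than higher, the ligands by a smaller margin. The shares over all tested genes were 43.3% lower and 43.0% higher. Of 31 tested receptor tyrosine kinase genes 9 were higher and 20 lower (median -0.84). Erbb3 fell 224-fold from 134 ± 7.35 CPM and Egfr 4.31-fold from 179.7 ± 2.63 CPM, and Kit stood at 0.0536 ± 0.0456 against 11.1 ± 0.721 CPM. The largest rises were those of Pdgfrb, given above, and of Ntrk3, a neurotrophin receptor at 17.3 ± 1.16 CPM with 3 counts in normal cells. Among 36 growth factor ligand genes 13 were higher, 10 of them at least 2-fold, and 19 lower, 15 of them at least 2-fold (median -0.65). The ligands of the EGF receptor Areg, Ereg, Btc, Hbegf and Tgfa were 17.8-, 21.3-, 34.3-, 10.4- and 5.77-fold lower. Ptn (pleiotrophin) stood at 208 ± 3.80 against 0.389 ± 0.170 CPM, and the vascular growth factor genes Vegfa, Vegfb and Vegfd were 3.21-, 4.19- and 10.5-fold higher.

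Genes of Wnt signaling split evenly. Of 32 tested genes of the pathway 16 were higher and 16 lower, beside 43.0% and 43.3% of all tested genes. The epithelial ligands Wnt7a and Wnt7b fell to 0.0450 ± 0.0676 and 1.36 ± 0.378 CPM from 291 ± 2.76 and 583 ± 15.5 CPM. Wnt10a and Wnt10b stood at 10.7 ± 0.592 and 28.4 ± 1.65 CPM against 2 counts and 0.292 ± 0.0866 CPM in normal cells. Notum, an enzyme that inactivates Wnt proteins, stood at 15.4 ± 0.890 against 0.207 ± 0.0461 CPM, Tcf7 at 89.2 ± 4.52 against 5.65 ± 0.135, Lef1 at 8.59 ± 0.499 against 0.726 ± 0.292, Lgr5 at 3.05 ± 0.879 against 0.146 ± 0.0962 and Axin2 at 3.70 ± 0.487 against 1.30 ± 0.425 CPM. Nkd1, an inhibitor of the pathway, was 2.15-fold lower. Rnf43, a membrane ubiquitin ligase that removes Wnt receptors, rose 4.46-fold. The beta-catenin gene Ctnnb1 was 1.51-fold lower.

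Most genes often mutated in endometrial cancer were close to normal in level. Of 31 such genes 14 were higher, 2 of them at least 2-fold, and 16 lower, 3 of them at least 2-fold (median -0.21), and Sox17, Trp53 and Rnf43 had the largest differences. Arid1a, a chromatin remodeling subunit gene, stood at 114 ± 9.13 against 139.9 ± 3.28 CPM, and Pik3ca, a catalytic subunit of PI3 kinase, at 71.3 ± 3.18 against 91.0 ± 3.57 CPM. Levels of transcripts do not show mutations.

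In most of the immune lists more genes were lower than higher in HPmECC. The shares over all tested genes were 43.3% lower and 43.0% higher. What part the lower leukocyte markers given above had in this was not tested. Of 17 tested chemokine genes 7 were higher and 9 lower (median -0.49), with 6 each way at 2-fold or more. The summed level of the chemokine list was higher in HPmECC, at 1111 to 1200 CPM against 576 to 598 CPM. Most of it in HPmECC was Cxcl12, and without that gene the sum was lower in HPmECC than in normal cells. Ccl7, a monocyte chemoattractant, had 27.6, 28.1, 33.1 and 24.9 CPM in HPmECC and 19.9, 19.6, 21.9 and 19.9 CPM in normal cells, 1.39-fold higher (log2 fold change 0.48 ± 0.0769 SE, adjusted p = 1.25e-05 with edgeR), and the groups did not overlap. Cxcl12, a stromal chemokine, rose 77.5-fold to 965 ± 41.5 CPM, and Ccl5 and Cxcl10 reached 4.59 ± 0.421 and 6.55 ± 0.607 CPM from 0.291 ± 0.156 and 0.382 ± 0.126 CPM. Cxcl16, Cxcl14 and Ccl20, chemokines that epithelium can make, fell to 5.80, 0.0861 and 0.174 CPM from 373, 35.7 and 17.2 CPM. Ccl2 was 1.55-fold lower.

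Among 20 tested cytokine genes 6 were higher and 11 lower (median -0.74). The alarmin gene Il1a fell from 917 ± 34.3 CPM to 9 counts over the 4 HPmECC libraries (9392-fold), and the granulocyte factor Csf3 from 25.2 ± 2.42 CPM to 0 counts. Lif, which the uterus needs for implantation, was 12.3-fold lower. Il33, another alarmin gene, rose 10.8-fold to 28.3 ± 1.38 CPM and stood at 278 CPM in mECC. Ptgs2 (cyclooxygenase 2), of the list of suppressive ligands and enzymes, fell from 1538 ± 89.9 to 65.1 ± 2.68 CPM. In that list 6 of 19 were higher and 13 lower (median -1.62). Tgfb2 rose 12.9-fold and Tgfb1 3.19-fold, the checkpoint ligand Vtcn1 (B7-H4) fell 20.3-fold and Cd274 (PD-L1) stood at 0.679 ± 0.248 against 3.38 ± 0.753 CPM.

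Classical MHC class I heavy chains were lower. H2-K1 stood at 111 ± 3.75 against 364 ± 19.1 CPM and H2-D1 at 97.4 against 556 CPM; reads shared among near-identical H2 genes make these values uncertain. B2m, the light chain, stood at 407 ± 7.69 against 472 ± 22.5 CPM, whereas the peptide loading genes Tap2 and Tapbp were 2.42-fold and 2.13-fold higher. Of 24 tested class I genes 7 were higher and 15 lower (median -0.28). Of the class II genes Cd74, the invariant chain, was 5.40-fold higher at 12.5 ± 0.617 CPM, as were H2-DMa and H2-DMb1, which load peptides, by 2.63-fold and 3.13-fold, while H2-Ab1, a peptide-binding chain, had 0.0949 ± 0.0838 against 3.28 ± 0.862 CPM. Of 32 tested interferon-stimulated genes 10 were higher and 20 lower (median -0.63). Oas1a and Usp18 stood at 0.0593 ± 0.0547 and 0.460 ± 0.151 CPM against 20.4 ± 1.21 and 16.4 ± 1.60 CPM, and Ifit1 and Irf1 were 7.95-fold and 3.05-fold higher.

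The list of immediate early and dissociation genes was the lowest of the stress lists. The shares over all tested genes were 43.3% lower and 43.0% higher. Of 22 immediate early and dissociation genes, which rise when tissue is taken apart or cells are handled, 16 were lower and 6 higher (median -1.14). Fos stood at 3.83 ± 0.296 against 97.9 ± 3.82 CPM and Ier3 at 77.7 ± 5.62 against 1059 ± 5.81 CPM. Among 25 tested NRF2 and glutathione genes 9 were higher and 14 lower (median -0.55), with Gpx2 at 0 counts in HPmECC against 37.2 ± 2.59 CPM and Gstm1 6.73-fold higher. The unfolded protein and integrated stress response list split, with 10 genes higher and 13 lower of 25 (median -0.085). With library totals its median was 0.11, with 13 genes higher and 12 lower. The serine synthesis gene Psat1 was 1.86-fold higher, and the chaperone partner Dnajb9 6.58-fold lower. Among 10 tested genes of motile cilia 6 were higher and 3 lower, with Foxj1, the factor that directs ciliogenesis, at 0.581 ± 0.170 against 3.91 ± 0.164 CPM and Tppp3, a tubulin-binding protein, 5.26-fold higher. The rest of the 20 listed genes did not pass the filter and had few counts. Dnah5, Hydin and Ccno among them had 0, 8 and 15 counts in HPmECC against 26, 33 and 44, and Mcidas had 5 against 1.

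HOX genes, which carry positional identity along the body, differed by cluster. Of 30 tested genes 12 were higher and 18 lower, beside 43.0% and 43.3% of all tested genes. In the Hoxa cluster, Hoxa3 and Hoxa4 rose from 0.690 ± 0.117 and 0.446 ± 0.212 to 20.7 ± 0.846 and 19.9 ± 2.01 CPM, and Hoxa9, Hoxa10 and Hoxa11, toward the other end, were 3.50-, 3.96- and 7.53-fold lower. In the Hoxb cluster 7 of 9 tested genes were higher, and Hoxb9 reached 161, 160.3, 169.7 and 159 CPM against 13.5, 13.9, 11.8 and 10.5 CPM. The 9 Hoxc genes together had 1318 counts in normal cells (summed level 16.3 to 19.8 CPM), 1 count in HPmECC and 0 counts in mECC. The Hoxd sum fell from 35.1 ± 2.86 to 2.36 ± 0.318 CPM, with Hoxd11 at 0 counts. By cluster, 5 of 9 tested Hoxa genes were higher, 0 of 7 Hoxc and 0 of 5 Hoxd genes, and 7 Hoxc and 5 Hoxd genes were lower.

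**Figure D4:**
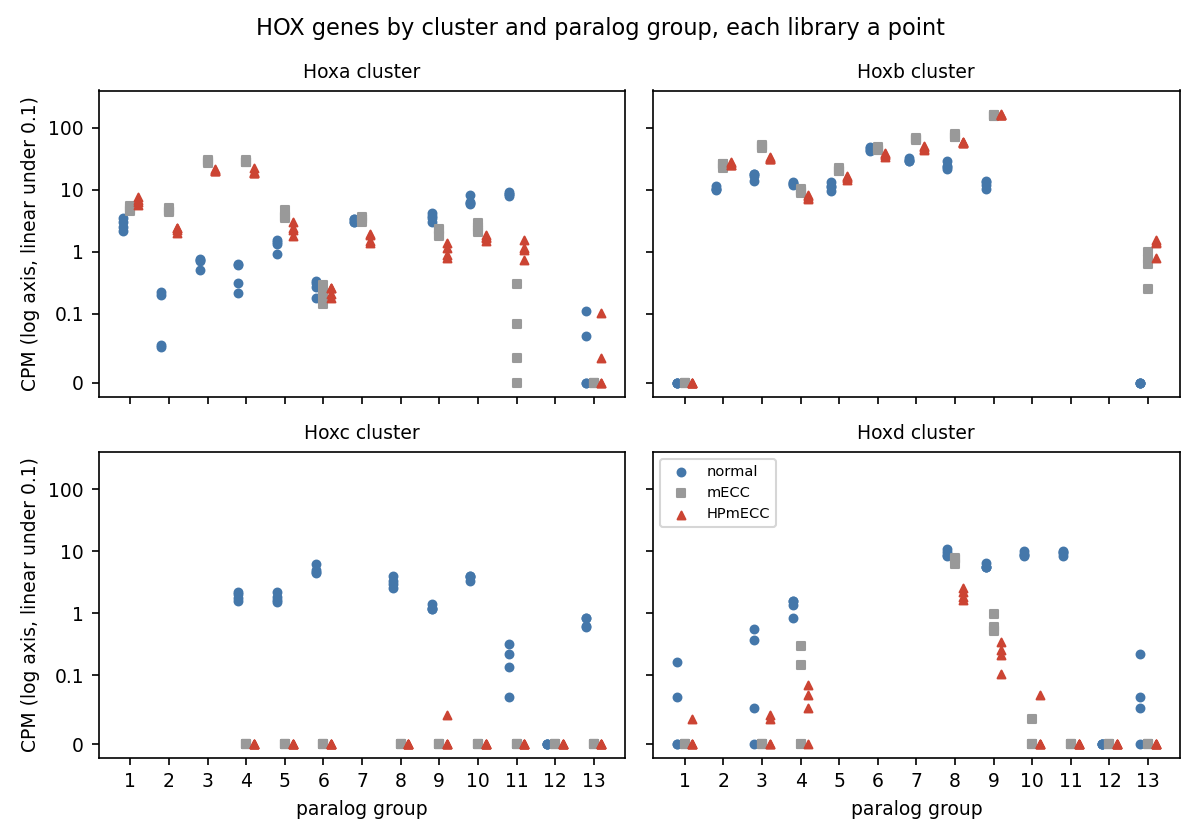
CPM of HOX genes (y axis, log, linear under 0.1 CPM) by paralog group (x axis) in the 4 clusters, with each library of normal cells, mECC and HPmECC as a point. The Hoxc genes lie at or near 0 in both cancer lines, and Hoxa3, Hoxa4 and Hoxb9 lie above normal in both.

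Imprinted genes, read from 1 parental copy, moved both ways (11 higher and 14 lower of 26 tested). All tested genes did so too, with 43.0% higher and 43.3% lower. H19 and Peg10 rose 34.9-fold and 11.9-fold to 59.1 ± 9.31 and 393 ± 16.0 CPM, while Rian and Meg3, of a shared imprinted region, were 39.2-fold and 25.7-fold lower. Of 6 tested genes of the list named cancer-testis and germline 2 were higher and 4 lower (median -0.72, sum 136 to 145 against 302 to 324 CPM). Most of both sums lay with Igf2bp3, Igf2bp2 and Hmga2, so the sums say little about germline genes. Igf2bp3, an RNA-binding protein gene of fetal tissue, rose from 0.112 ± 0.0917 to 25.5 ± 0.899 CPM, while its relative Igf2bp2 fell from 134 ± 2.18 to 72.6 ± 1.86 CPM and Hmga2, a chromatin protein gene of fetal tissue, from 162 ± 11.7 to 30.0 ± 1.63 CPM. The other 26 genes of that list, among them the Mage, Sycp and Tex genes, did not pass the filter. Ddx4, the highest of them in normal cells, had 0.293 CPM there and 0.045 CPM in HPmECC.

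Xist, the RNA that coats the inactive X chromosome, was named after its values were seen. It had 0.128, 0.0357, 0 and 0 CPM in HPmECC and 186, 214, 239 and 226 CPM in normal cells, 4664-fold lower, and 0.0986 ± 0.0548 CPM in mECC. Because no strand setting is stated, its reads and those of its antisense partner Tsix cannot be told apart. The median log2 fold change of the 488 tested X-linked genes was 0.0084.

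Differences were unevenly spread over the chromosomes. The median log2 fold change of tested genes was -0.79 on chromosome 14 (512 genes, 72.3% lower), 0.55 on chromosome 5 (1003 genes, 66.0% higher), 0.40 on chromosome 15 (621 genes) and 0.40 on chromosome 17 (758 genes). All other chromosomes with at least 20 tested genes lay between -0.28 (chromosome 13) and 0.24 (chromosome 2). Along the genes of chromosome 14 the medians of the first, middle and last part of equal gene number were -0.70, -0.86 and -0.87, and along chromosome 5 they were 0.51, 0.45 and 0.70. On chromosome 15, which holds Myc, they were 0.38, 0.41 and 0.43. The median of HPmECC minus mECC was 0.27 on chromosome 15 and 0.29 on chromosome 12, and on chromosome 14 it was 0.094. For mECC minus normal, where 86.3% of tested genes were called in either direction and the normal libraries are shared, the median on chromosome 14 was -0.94.

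**Figure D5:**
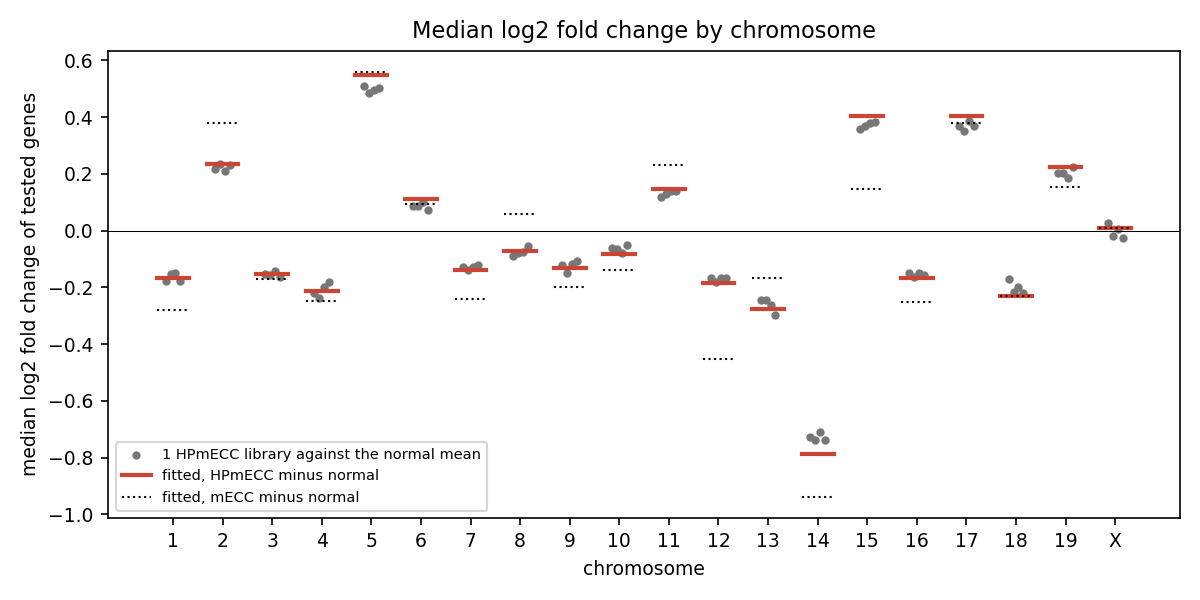
Median log2 fold change of tested genes (y axis) on each chromosome with at least 20 tested genes (x axis); red lines are the fitted values of HPmECC minus normal, dotted lines those of mECC minus normal, which share the normal libraries, and grey points each HPmECC library against the normal mean. The 4 HPmECC libraries lie close together on each chromosome, with chromosome 14 the lowest and chromosome 5 the highest.

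The most abundant transcripts differed in kind. In HPmECC the 10 genes with the highest TPM, mitochondrially encoded genes left out, were Eef1a1, Rps2, Ftl1, Gapdh, Rps18, Actb, Rplp0, Rplp1, Lgals1 and Rpl23a. Lgals1, the galectin of mesenchymal cells, stood at 4446 ± 41.7 TPM against 1058 ± 84.5 TPM in normal cells. In normal cells the 10 were Prap1, Eef1a1, Actg1, S100a6, S100a11, Sprr2f, Gm10925, Actb, Ftl1 and Tmsb4x. Tmsb4x (thymosin beta 4), which binds actin monomers, stood at 4562 ± 106 TPM there and 963 ± 42.2 TPM in HPmECC, and the calcium-binding protein S100a11 at 5511 ± 48.5 and 1592 ± 31.2 TPM. Actb was 1.10-fold lower by TMM-scaled counts and higher on the TPM scale, so its direction depends on the scaling.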

How the data were processed

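Per the labels' protocols, RNA of the 12 samples was extracted with RNeasy kits and turned into TruSeq mRNA libraries. Trim Galore, STAR 2.6.1a, RSEM 1.3.1 and the build GRCm38 are named in the submitters' processing notes. For the annotation release and the strand setting, the sources used here give nothing. The deposited count table holds RSEM estimated counts per gene that the authors wrote as whole numbers, and the deposited TPM table holds their length-scaled values. The FPKM table was not used.

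Groups were taken from the sample titles. Of 55385 gene identifiers 55144 matched a symbol; positions are from GENCODE mouse release 21. All 12 libraries were fitted together with edgeR 4.0.16 (quasi-likelihood test, TMM, filterByExpr with a minimum count of 10) in R 4.3.3, without a replicate block, and the contrast was HPmECC minus normal. SEs were derived from the fold change and the F statistic. The fit was tested on simulated counts in which few genes were changed, so that run cannot check the scaling where most genes differ. Where a group had 0 counts, a fold is a lower bound against 3 counts over its 4 libraries; with 1 to 3 counts it has an exact 95% interval. Such intervals cover counting error only. Alternatives were DESeq2 1.42.0, limma 3.58.1 on log2(TPM + 1) and log2(TPM + 0.1), other scalings, filters and blocks, and each of the 8 compared libraries left out in turn.

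The comparison and its 42 gene lists were chosen with earlier results of these data known. Genes were named by rule: 10 preset genes; the 10 highest and 10 lowest fold changes among called genes that reach 10 CPM in either group, have groups without overlap and bear an assigned name; up to 2 highest and 2 lowest called members per list with at least 5 CPM; and the 10 highest mean TPM in each group. The rule named 180 genes, of which the text gives a part; a few genes are not reported here. Other list members, and the genes silent in 1 group, were named after their values were seen. Lists of adipocyte and muscle genes (0 of 3 tested members higher, 3 lower) had few members past the filter.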

Additional observations from a re-analysis of the deposited data

Results flagged for a closer look

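Of 337 sets of 4 libraries of a named gene, 21 had a single library whose gap to its neighbour exceeded Dixon's 95% critical value; chance gives about 1 in 20. For each gene concerned but Gapdh and Ftl1, which were not called, the HPmECC and normal libraries did not overlap. For those named as the largest rises and falls this was a condition of naming, and 81.7% of all tested genes had no overlap.

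HPmECC replicate 4 stood apart for the glycolytic genes Aldoc, at 68.2 CPM where the other libraries had 48.3, 49.2 and 50.6, and Gapdh, at 4648 against 3609 to 3720 CPM. It was the lowest for Ftl1 (ferritin light chain), at 2237 against 2736 to 2805 CPM. HPmECC replicate 3 had the lowest level of Rfc3, at 56.6 CPM, and of Rpl8, at 1604 CPM, and the highest of Rpl15, at 489 CPM. HPmECC replicate 1 was lowest for Slc44a5, at 9.93 against 11.6 to 11.8 CPM.

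Among the normal libraries, replicate 2 had 94.3 CPM of the epithelial protease gene Mmp7 where the others had 53.8, 57.4 and 60.7, and 3.01 CPM of Cd74 where the others had 2.03 to 2.11. Normal replicate 3 was highest for Ccl7, at 21.9 CPM, and lowest for the leukocyte integrin gene Itgam, at 7.71 against 10.3 to 10.5 CPM, and for S100a11, at 1205 CPM. Ptn was lowest in normal replicate 1, at 0.135 CPM.

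The remaining 8 sets were those of near-silent genes, where a single library held all counts. In HPmECC these were Ap1m2 and Sftpd (replicate 1, 0.0426 CPM each), Ltf (replicate 2, 0.143 CPM) and Itgam (replicate 4, 0.0368 CPM). In normal cells they were Foxd1 (replicate 1, 0.135 CPM), Adamtsl3 (replicate 2, 0.0520 CPM), and Rspo2 and Tnn (replicate 3, 0.0551 CPM each).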

How the results depend on the processing

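The counts of genes called higher and lower moved by less than 1.5 times under each alternative run. With at least 10 CPM required in 4 libraries, the genes at least 2-fold higher in HPmECC than in normal cells came to 1600.0 and the genes at least 2-fold lower in HPmECC than in normal cells to 2016, with 10656 genes tested in place of 15283. Library totals gave 7725 genes higher and 5583 lower, limma on log2(TPM + 1) 7368 and 5480, DESeq2 6269 and 6764, and median-of-ratios factors 6356 and 6833. With 1 library left out, 6512 to 6561 genes were higher and 6564 to 6682 lower, and at 2-fold 2846 to 2898 and 3534 to 3646. Actb reversed from -0.14 to 0.052 with library totals and to 0.11 and 0.11 by limma on log2(TPM + 0.1) and log2(TPM + 1); Gins2 reversed from -0.49 to 0.44 and 0.42 by the same limma fits. The cause was not tested for Gins2. Bnc1, at 0.16, was not called by DESeq2 or with median-of-ratios factors.

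Library totals and TPM moved the median of all genes by 0.196 and 0.145 (TPM + 1) on the log2 scale. The median of the stress response list turned positive with both, that of the mitochondrially encoded list with TPM + 1, and that of the nucleolar list turned negative with median-of-ratios factors and DESeq2 (-0.020 each). With the replicate block 6539 genes were higher and 6607 lower. Same-numbered libraries did not deviate together (correlations of 0.050, 0.041, 0.026 and -0.027; 2 of 4 libraries were closest to their own number), so the numbers are not taken to pair the samples. Genes of a few counts in a library limit the folds given for near-silent genes, and the libraries cannot show whether the spread among replicates is that of separate cultures.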
